A study of Homo sapiens with 8 samples.

Results

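MYC, its obligate partner MAX and the other transcription factors that share MAX or its relative MLX were followed in total and Ago2-bound RNA of a Hodgkin lymphoma cell line. The 9 genes taken as the network were MYC, MAX, MXI1, MXD1, MXD3, MXD4, MNT, MGA and MLX. Every probe whose RefSeq accession led to 1 of these genes was included, which gave 19 probes of the 41000 on the array. Of these, 18 were among the 22469 probes kept for analysis. A probe was kept when at least 4 of 8 channels read it as well above background and its Cy3 and Cy5 values lay within 2-fold of each other for every RNA sample.

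MYC and MAX bind each other through basic helix-loop-helix leucine zipper domains, and the pair activates transcription at E-box sequences in promoters. The MXD proteins, MXI1 and MNT pair with the same MAX and recruit the SIN3 corepressor, so they compete with MYC for MAX and for E-boxes. MGA pairs with MAX in a Polycomb-related repressor complex, and MLX is a MAX-like protein that also accepts MXD1, MXD4, MNT and the glucose-responsive MondoA (MLXIP) and ChREBP (MLXIPL) proteins. MYC is a short-lived transcript with a well known dependence on post-transcriptional control, and in B-cell lymphoma it drives growth and ribosome production.

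L1236 is a cell line derived from Hodgkin lymphoma in which miR-155 is abundant. It was transduced with the pMSCV-PIG vector without an insert (EV) or with the same vector carrying a miR-155 sponge, a transcript that offers many binding sites to the microRNA, and GFP+ cells were sorted from each population. Total RNA (T) and RNA precipitated with an antibody against Argonaute 2 (IP), the protein that holds microRNAs on their targets, were taken from both populations, and each of these 4 RNA samples was labelled with Cy3 and with Cy5. An IP and a T sample of the same population shared each of 4 two-colour arrays. The model is thus 1 cell line with 1 transduced population per construct, both populations carry the vector, and precipitations with a control antibody were not analysed here.

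The microRNA that the sponge competes for is shown first, since it defines the EV and sponge groups. Its mature sequence (RefSeq, GRCh38.p14, chr21:25573983-25574006, plus strand) has the seed, bases 2 to 8, in capitals.
hsa-miR-155-5p: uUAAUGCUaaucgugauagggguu
Transcript sequences in which a match to this seed could be sought were not used here, so no member is called a target of miR-155.

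Since E-boxes are the sequence the network binds, the promoters of the members themselves were searched for it. The canonical E-box CACGTG, which reads the same on both strands, was searched from 250 bases before to 50 bases after each RefSeq transcription start. It was present in 7.26% of 35116 such windows in the genome. Of 13 windows for 8 members, 3 held it, and they belonged to MXD4, MNT and MLX. The 30 bases around each E-box (GRCh38.p14, strand of the gene) are printed with the E-box in capitals.
MXD4 (chr4:2262330-2262359, minus strand): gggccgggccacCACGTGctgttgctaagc
MNT (chr17:2401236-2401265, minus strand): ccctgcccgggcCACGTGtgcgcgcgccgg
MLX (chr17:42567038-42567067, plus strand): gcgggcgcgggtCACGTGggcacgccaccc
The E-box began 238 bases before the start of MXD4, 193 before that of MNT and 50 before that of MLX. A match says only that these letters are in the window, and binding was not measured in this study.

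Each group held 1 RNA sample, so groups are compared by their values without a test or p-value. Errors are SDs over the 2 dye orientations of an IP/T ratio, or over the 2 dyes of a change between populations. These SDs reflect labelling and hybridisation alone, not differences between cultures, transductions or precipitations. Signals and ratios are on the log2 scale after quantile normalisation, where a ratio of 1 is 2-fold. The channels had 54.1% to 65.7% of spots well above background, the lowest being sponge T in Cy5, and 0 spots were saturated. Of the markers of Hodgkin and Reed-Sternberg cells, 9 of 9 were kept. Of 7 B-cell markers, 5 were kept, with MS4A1 and CD22 well above background in 0 channels. Of 8 T-cell and myeloid markers, CD14 and CSF1R were kept, and CD3E, CD2 and CD8A were well above background in 8, 7 and 7 channels but were not kept. CD3D, LYZ and CD68 were well above background in 0 channels. The part of other cell types in the results was not tested.

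In EV cells, MYC, MNT and MXD1 were the members with the highest IP/T ratios, followed by MAX. After quantile normalisation this ratio is relative to the other probes and does not give the fraction of a transcript bound to Ago2. The order of MXD1 and MAX depended on background correction, as given below. Of the 18 kept member probes, 6 (33.3%) were IP-enriched, that is, had an IP/T ratio ≥ 2, against 17.5% of all kept probes. These were both probes of MXD1, the single MNT probe, 1 of 3 MAX probes and both probes of MYC. The dimmer MYC probe, A_24_P38363, was not well above background in T and passed the filter through IP alone, so its 2-fold ratio is not an established enrichment. Among member probes detected in all 8 channels the count was 5 of 16 in EV cells, against 15.8% of all such probes, and 4 of 16 in sponge cells, against 15.6%. In sponge cells 5 of 18 (27.8%) reached this ratio, against 17.5% of all kept probes, and the MAX probe, at a log2 ratio of 0.98 ± 0.20, was the one just below it. That probe was above the limit in sponge cells with normexp, loess and Aquantile (1.08), with Cy5 labels alone (1.04) and with IP in Cy5 alone (1.12). At the other end, a T/IP ratio ≥ 2 was found for 0 member probes in EV and for 1, an MGA probe, in sponge cells. The MGA call was lost with 75th percentile scaling and with both normexp settings, and EV cells had 1 such probe with Cy3 labels alone or with either dye orientation alone. Among all kept probes 19.0% did so in EV and 17.8% in sponge cells.

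The median log2 IP/T over the member probes was 0.32 ± 0.03 in EV cells, while that of all kept probes was -0.16. After normexp background correction the member median was 0.0472 (loess and Aquantile) or 0.0608 (quantile), with all kept probes at 0.0004 and -0.05, and with a dye filter of 1.5-fold it was 0.0692, so its size depended on the processing beyond its SD. In sponge cells the medians were 0.21 ± 0.18 and -0.13. The members were far from uniform, ranging from -0.99 for MXD3 to 2.49 for MYC in EV cells. A description of 18 probes on 9 genes chosen with earlier results of these data known does not show that the network as such is particular in this respect.

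**Figure D1:**
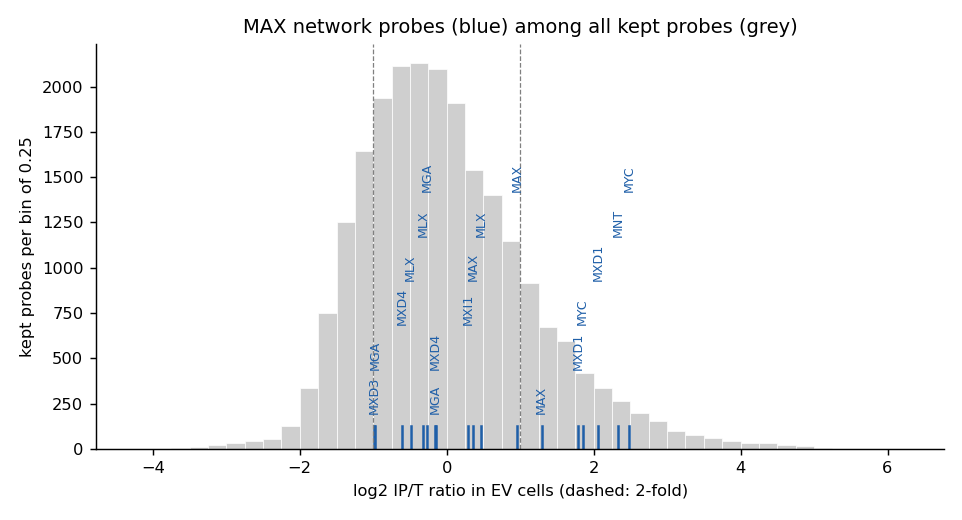
Number of kept probes (grey bars, bins of 0.25) by log2 IP/T ratio in EV cells, with the 18 kept probes of the MAX network as blue lines labelled by gene and the 2-fold limits dashed. MYC, MNT and MXD1 stand to the right of the upper limit, 1 MAX probe lies just past it, and MXD3 and 1 MGA probe lie at the lower limit.

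Taking the brightest kept probe of each gene, the order of log2 IP/T in EV cells was MYC at 2.49 ± 0.26, MNT at 2.33 ± 0.05, MXD1 at 1.79 ± 0.09, MAX at 1.29 ± 0.20, MLX at 0.47 ± 0.07, MXI1 at 0.29 ± 0.23, MXD4 at -0.15 ± 0.11, MGA at -0.27 ± 0.15 and MXD3 at -0.99 ± 0.18. MYC and MNT, the activator and the most widely expressed repressor of the network, could not be placed in order, since their difference of 0.16 was smaller than its SD of 0.32. Each of the other 7 neighbouring pairs differed by more than 1 SD of their difference over the dye orientations. MLX and MXI1 did so narrowly, by 0.18 ± 0.16. The places of MAX, MLX, MXD4 and MGA depend on the probe. MAX was at 0.95 and 0.36 with its other probes, the last of these below MLX. MLX was below 0 with its other probes, MXD4 was at -0.61 with its other kept probe, and MGA was at -0.16 and -0.98 with its others. The signals behind this order are shown for every RNA sample in the plot of normalised signal by gene.

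**Figure D2:**
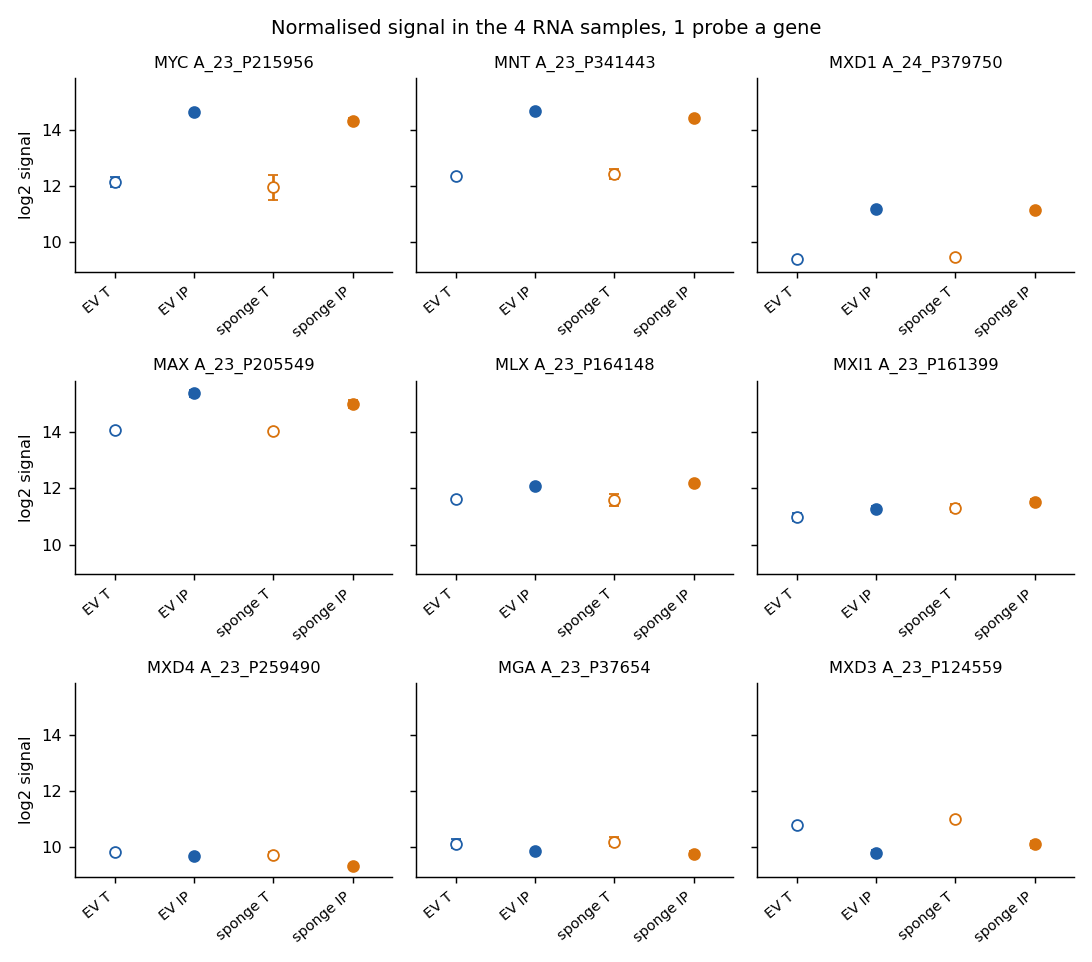
Log2 normalised signal of 1 probe per gene in EV (blue) and sponge (orange) cells, with T open and IP filled. Points are means and bars SDs over the Cy3 and Cy5 labels of 1 RNA. MYC, MNT, MXD1 and MAX were higher in IP than in T in both populations and MXD3 was lower, by 0.99 in EV and 0.90 in sponge cells.

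MYC is the activating subunit of the network and was measured by 2 probes for the same accession. With A_23_P215956, the log2 signal was 12.13 in EV T, 14.62 in EV IP, 11.94 in sponge T and 14.30 in sponge IP. Both IP samples lay above both T samples, and this probe was well above background in all 8 channels. The log2 IP/T ratio was 2.49 ± 0.26 in EV cells, a 5.60-fold enrichment, and 2.36 ± 0.56 in sponge cells, and 96.7% of all kept probes had a lower ratio in EV cells.

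The second MYC probe, A_24_P38363, was dim. It gave 3.62 in EV T, 5.47 in EV IP, 3.72 in sponge T and 5.62 in sponge IP, and it was not well above background in T of either population. Its log2 IP/T ratios of 1.85 ± 0.33 and 1.90 ± 0.004 therefore rest on T signals within background. As a bound after normexp background correction, IP was at least 1.02-fold T in EV cells and at least 1.03-fold in sponge cells. The enrichment of MYC thus rested on A_23_P215956.

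MAX, the partner that MYC needs and that the MXD proteins and MNT share, was measured by 3 probes for different transcript accessions. For A_23_P205549 (NM_145113), log2 signal was 14.09 in EV T, 15.38 in EV IP, 14.04 in sponge T and 15.02 in sponge IP. T was nearly level between the populations, while IP was lower in sponge cells. Its log2 IP/T ratio went from 1.29 ± 0.20 in EV to 0.98 ± 0.20 in sponge cells. The difference of -0.31 had an SD of 0.004, since both dye orientations gave nearly the same value.

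The other MAX probes were also higher in IP than in T. A_23_P151662 (NM_197957) had log2 IP/T ratios of 0.95 ± 0.28 and 0.87 ± 0.22 in EV and sponge cells. A_23_P436138 (NM_145114) had ratios of 0.36 ± 0.17 and 0.20 ± 0.59, and in sponge cells its orientations differed in sign. In EV cells it lay 0.93 ± 0.37 below A_23_P205549. Probes for 1 accession also differed by a similar amount, as given for MLX, so the difference cannot be assigned to the transcript accessions.

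Of the repressors that pair with MAX, MNT and MXD1 were IP-enriched in EV cells, as MYC was, and the others were not. MNT, which is present in most tissues and antagonises MYC in proliferating cells, gave 12.35 in EV T, 14.68 in EV IP, 12.42 in sponge T and 14.41 in sponge IP. As for MYC, both IP samples were above both T samples. The log2 IP/T ratio of MNT was 2.33 ± 0.05 in EV cells, or 5.03-fold, and 1.99 ± 0.25 in sponge cells, a difference of -0.34 ± 0.20.

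MXD1, a repressor usually associated with differentiation and exit from the cell cycle, was enriched with both of its probes. A_24_P379750 gave 9.39 in EV T, 11.17 in EV IP, 9.46 in sponge T and 11.13 in sponge IP, with log2 IP/T ratios of 1.79 ± 0.09 and 1.67 ± 0.08. A_23_P408094 gave 8.73, 10.80, 9.30 and 10.87 in the same order, with ratios of 2.07 ± 0.22 and 1.57 ± 0.02. Both IP samples exceeded both T samples with either probe, and A_23_P408094 alone was also clearly higher in T of sponge than of EV cells.

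MXI1, MXD3 and MXD4 belong to the same repressor family but their log2 ratios lay near or below 0. MXI1 had log2 IP/T ratios of 0.29 ± 0.23 in EV and 0.22 ± 0.26 in sponge cells. MXD3, which unlike the other family members is known to be expressed in S phase, gave 10.78 in EV T, 9.80 in EV IP, 10.99 in sponge T and 10.09 in sponge IP. Both MXD3 T samples were thus above its IP samples, with ratios of -0.99 ± 0.18 and -0.90 ± 0.14.

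MXD4 was measured by 3 probes, of which 2 were kept. A_23_P423695 gave 9.06 in EV T, 8.45 in EV IP, 8.85 in sponge T and 7.86 in sponge IP, so the sponge IP sample was the lowest. Its log2 IP/T ratio was -0.61 ± 0.13 in EV and -0.99 ± 0.30 in sponge cells. A_23_P259490 had ratios of -0.15 ± 0.11 and -0.41 ± 0.01. The probe that was not kept, A_24_P234732, had Cy3 and Cy5 values that differed 2.20-fold in sponge T, was well above background in 7 channels and gave ratios of -0.68 ± 0.12 and -0.34 ± 0.55.

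MGA and MLX, which stand apart from the MYC and MXD families, were without enrichment or ambiguous. MGA, the scaffold of a MAX-containing Polycomb-related complex, had 3 kept probes with log2 IP/T ratios in EV cells of -0.27 ± 0.15, -0.16 ± 0.50 and -0.98 ± 0.33. The ratio in sponge cells was -1.03 ± 0.28 for the last of these, A_24_P40968, whereas the other 2 gave -0.44 ± 0.07 and -0.06 ± 0.32. The orientations of A_23_P49052 differed in sign in both populations.

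The 3 MLX probes share 1 accession but disagreed. A_23_P164148 had log2 IP/T ratios of 0.47 ± 0.07 in EV and 0.62 ± 0.15 in sponge cells, whereas A_24_P13991 had -0.49 ± 0.06 and -0.34 ± 0.17, and A_24_P250176 had -0.32 ± 0.20 and -0.30 ± 0.26. The first 2 differed by 0.96 ± 0.01 in EV cells. Across the 3459 genes with more than 1 kept probe, the median difference between 2 probes of a gene was 0.32, and 10% of 5780 pairs differed by more than 1.15. No direction is therefore given for MLX.

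**Figure D3:**
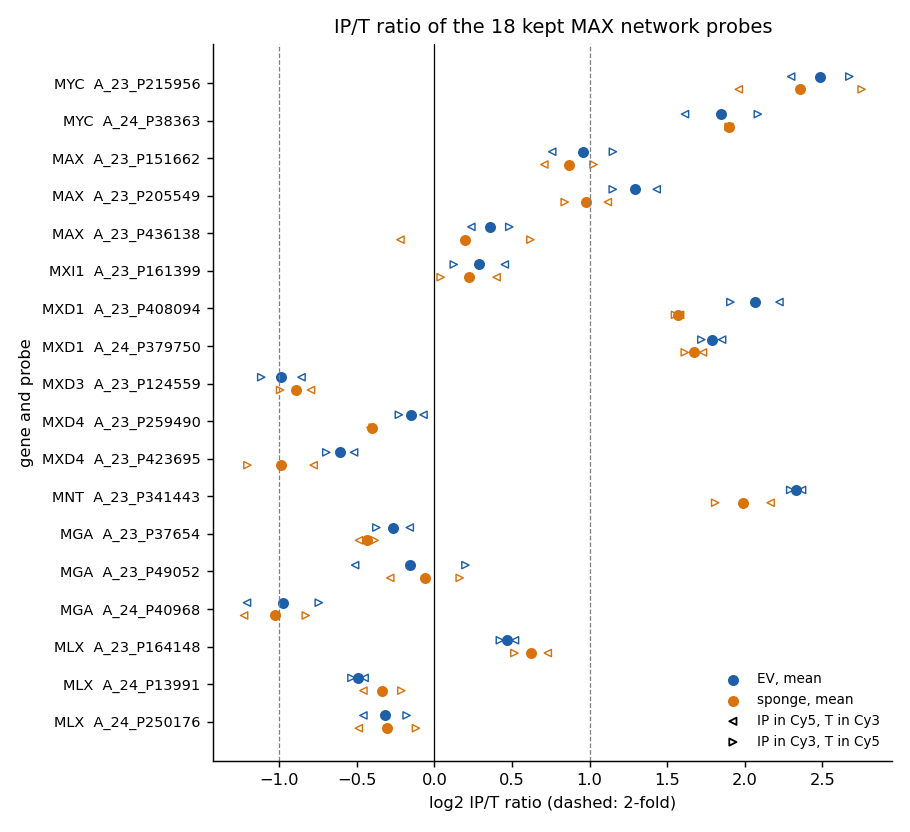
Log2 IP/T ratio of each kept member probe in EV (blue) and sponge (orange) cells. Filled points are means, and open triangles the values of each dye orientation. MYC (A_24_P38363 with T within background), MXD1 and MNT lie right of the 2-fold line in both populations, MAX A_23_P205549 crosses it from 1.29 to 0.98, and the 3 MLX probes fall on both sides of 0.

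Sponge and EV cells differed little in the network's total RNA. No member probe changed by 2-fold or more in T (0 of 18, against 0.409% of all kept probes), and 0 of 18 did so in IP (against 0.151%). The median change in T, sponge minus EV, was -0.04 ± 0.06 over the member probes and -0.02 over all kept probes. With total RNA, fewer cells with a transcript and less transcript per cell cannot be told apart. The host transcript of miR-155 itself, MIR155HG, changed by -0.63 ± 0.12 in T and by -0.38 ± 0.08 in IP.

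MYC was not distinguishable between the populations in T, at -0.18 ± 0.27 with A_23_P215956, for which Cy3 gave 0.01 and Cy5 -0.38. The 3 MAX probes gave changes in T of -0.05 ± 0.01, -0.06 ± 0.11 and -0.24 ± 0.37. MNT gave 0.07 ± 0.13. All of these means lay within the middle 80% of all kept probes, which spanned -0.27 to 0.26.

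Higher values in sponge T were seen for members of the MXD family. MXD1 A_23_P408094 was higher by 0.57 ± 0.10, more than 98.4% of all kept probes, but the other MXD1 probe gave only 0.07 ± 0.07, and the probes differed by 0.50 ± 0.04. MXI1 was higher by 0.31 with both dyes, and MXD3 by 0.20 ± 0.07. MXD4 went the other way, at -0.10 ± 0.14 and -0.21 ± 0.14 with its kept probes. In T, 8 of 18 member probes (44.4%) changed by more than their SD, as did 50.7% of all kept probes, so the count of such members was not above the background.

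Changes in the Ago2 fraction were more uniform between dyes over the whole array, with a median SD over all kept probes of 0.075 in IP and 0.12 in T. In IP, 11 of 18 member probes (61.1%) changed by more than their SD, against 64.6% of all kept probes, so by the limit used for T the members were not above the background. The same 11 changed by more than 2 SD, against 44.1% of all kept probes, whereas in T 6 of 18 did, against 29.5%. Of the 11, 7 were lower and 4 higher in sponge cells. The 4 include the dim MYC probe A_24_P38363, which passed the filter through IP alone. The median change in IP was -0.08 ± 0.10 over the members and 0.01 over all kept probes. With a limit set after the values were seen, 6 of 18 members were in the lowest 10% of changes in IP, below -0.25, and they belonged to 4 genes, MYC, MAX, MXD4 and MNT. In the highest 10% there was 1 member, MXD3.

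With the brightest probe of each gene, MYC, MAX and MNT had less signal in IP of sponge cells while their changes in T lay within the middle 80% of all kept probes. The change in IP of MYC A_23_P215956 was -0.31 ± 0.02. MAX gave -0.37 ± 0.01 with A_23_P205549 and -0.40 ± 0.05 with A_23_P436138, while A_23_P151662 gave -0.15 ± 0.17, which is within its SD. MNT gave -0.27 ± 0.07. Both dyes gave a lower value in sponge cells for each of these probes, and each value is well under a 2-fold change. The IP/T ratio changed by -0.13 ± 0.29 for MYC A_23_P215956 and by -0.16 ± 0.42 for MAX A_23_P436138. For both of them a fall in IP beyond that in T was not established. The dim MYC probe A_24_P38363 went the other way in IP, as given below.

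The lowest change in IP of the network was that of MXD4, at -0.59 ± 0.04 with A_23_P423695 and -0.36 ± 0.02 with A_23_P259490. Only 0.614% of all kept probes had a lower change in IP than the first of these. Higher in IP were MXD3, by 0.30 ± 0.02, and MXI1, by 0.25 ± 0.02, both of which were also higher in T. MXD1 was level in IP, at 0.07 ± 0.10 and -0.05 ± 0.06. The MXD family therefore split, with MXD4 lower and MXD3 and MXI1 higher in the Ago2 fraction of sponge cells.

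The dim MYC probe A_24_P38363 gave a change in IP of 0.15 ± 0.02, opposite in direction to A_23_P215956 by 0.46 ± 0.003. It was well above background in both IP samples, so the probes of MYC disagreed on the direction in IP. MGA and MLX changed little in IP, from -0.15 ± 0.01 for MGA A_24_P40968 to 0.15 ± 0.30 for MGA A_23_P49052, and MLX lay within that range.

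**Figure D4:**
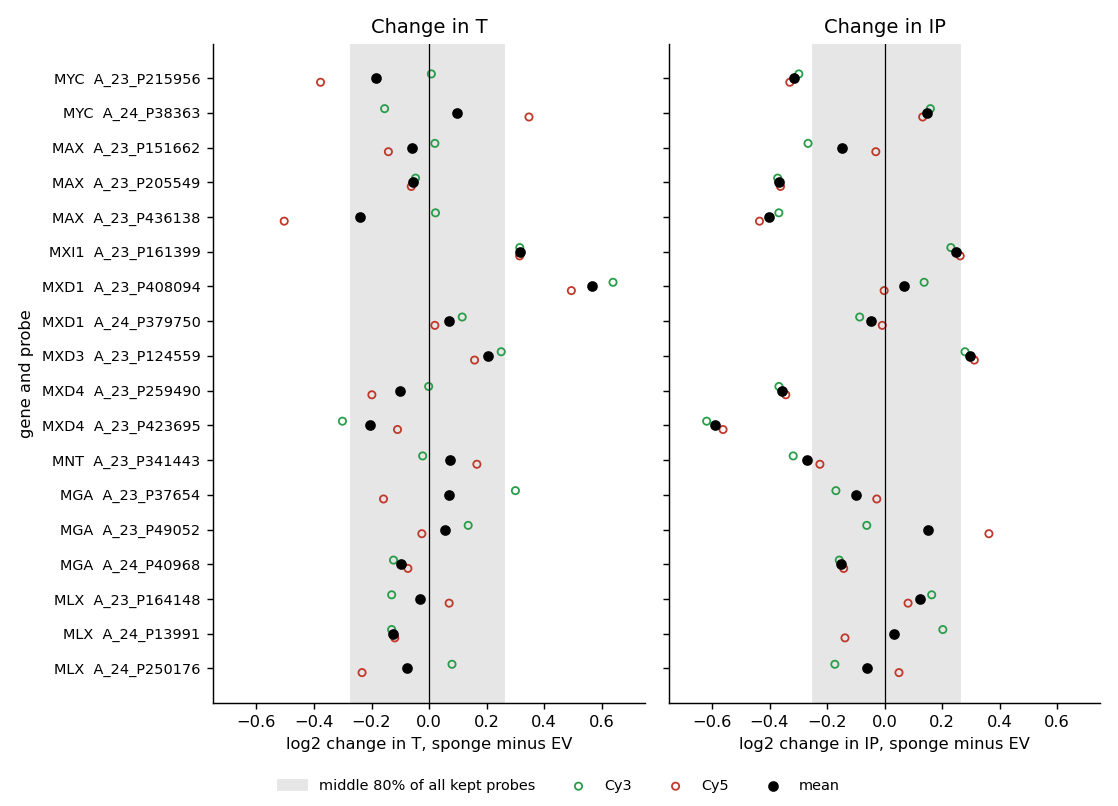
Log2 change from EV to sponge cells in T (left) and in IP (right) for each kept member probe. Black points are means, green and red circles the Cy3 and Cy5 values, and the grey band the middle 80% of all kept probes. In IP, MYC A_23_P215956, 2 MAX probes, both MXD4 probes and MNT lie left of the band, at -0.27 to -0.59, with their dyes close together. The dyes of MGA A_23_P49052 and MLX A_24_P13991 lie apart.

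The IP/T ratio itself was lower in sponge cells for 12 of 18 member probes, with a median difference of -0.10, whereas it was lower for 46.9% of all kept probes, with a median of 0.02. The largest of these differences was that of MXD1 A_23_P408094, at -0.50 ± 0.20, which came with its higher T signal. MNT at -0.34 ± 0.20, MAX A_23_P205549 at -0.31 ± 0.004 and MXD4 A_23_P423695 at -0.38 ± 0.18 differed mainly through IP. None of them reached 2-fold.

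Other genes of the pathway were read from fixed lists, with each gene at its brightest kept probe. For comparison, 18.2% of 11201 named genes were IP-enriched (IP/T ≥ 2) in EV cells, 18.7% were depleted (T/IP ≥ 2), and their median log2 IP/T was -0.16. MLXIP, the MondoA protein that pairs with MLX, had a log2 IP/T ratio of 1.57 ± 0.07 and was lower in sponge IP by 0.40 ± 0.02. MYCL, a relative of MYC, had a ratio of 0.06 ± 0.01 in EV and -0.13 ± 0.07 in sponge cells, and MLXIPL had -0.12 ± 0.29 in EV cells. MYCN was not kept.

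The transcriptional cofactors of MYC mostly had log2 IP/T ratios below 0. Of 17 kept cofactor genes, 15 had a log2 IP/T ratio below 0 in EV cells, against 55.9% of all named genes. In this list 6 were depleted and 1 was enriched by 2-fold or more, with a median of -0.67. RUVBL2 and RUVBL1, ATPases of chromatin remodelling complexes, were at -1.76 ± 0.04 and -1.46 ± 0.22, and the enriched gene was ACTL6A, an actin-related subunit of such complexes, which was at 1.05 in sponge cells. The 16 SIN3 corepressor genes, which serve the MXD proteins and MNT, had a median of -0.23, with 2 genes past 2-fold in each direction. One of the enriched genes, ARID4A, was not well above background in EV T and has no established ratio. ARID4B, a subunit of the SIN3 complex, had the highest ratio of this list, at 1.84 ± 0.10.

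The 10 kept genes of the MGA complex had a median of 0.44, with 1 gene enriched and 3 depleted by 2-fold or more. RNF2 and RING1, paralogous ubiquitin ligases of Polycomb complexes, were on opposite sides, at 1.60 ± 0.17 and -1.27 ± 0.16. Regulators of MYC protein stability also spread widely. Of 18 such genes, 7 were enriched and 4 depleted by 2-fold or more. SKP2 and FBXW7, the substrate receptors of ubiquitin ligases that mark MYC for degradation, were at 3.27 ± 0.004 and 2.79 ± 0.14, and the deubiquitinase USP37 was at 2.05 ± 0.04. STUB1 and HUWE1, ubiquitin ligases of other types, were at -1.74 ± 0.13 and -1.41 ± 0.08.

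Genes that MYC is known to activate had a median log2 IP/T ratio of -0.25 in EV cells, and 7 of 43 were enriched and 8 depleted by 2-fold or more. MTHFD2, a mitochondrial folate enzyme, was at 2.02 ± 0.10 and BOP1, a ribosome biogenesis factor, was at -1.55 ± 0.02. In T, 30 of 43 were lower in sponge cells, against 52.4% of all named genes, with a median change of -0.07 against -0.01, and 0 changed by 2-fold. In IP, 22 were higher and 21 lower, with a median change of 0.02. The lowest changes in T were those of PRDX3, a mitochondrial peroxidase, at -0.33 ± 0.02, and the transferrin receptor TFRC at -0.29 ± 0.02. In IP, PRDX3 changed by 0.25 ± 0.17 and TFRC by -0.25 ± 0.004.

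Genes that MYC is known to repress had a median log2 IP/T ratio of 0.64 over 14 kept genes, of which 4 were enriched and 2 depleted by 2-fold or more. BTG2, an antiproliferative gene, was at 5.00 ± 0.06, and the cell cycle inhibitors CDKN1B and CDKN1A were at 2.74 ± 0.05 and 1.78 ± 0.13. The depleted genes were CEBPA at -2.15 ± 0.24 and THBS1 at -1.02 ± 0.73. CDKN1A changed from EV to sponge cells by 0.51 ± 0.12 in T and 0.52 ± 0.03 in IP. DDIT3 rose most in IP, by 0.58 ± 0.05, and CEBPA fell most, by -0.65 ± 0.61. Of the targets of MLX and MLXIP, 3 of 5 were kept and all 3 were enriched by 2-fold or more, namely ARRDC3 at 3.82 ± 0.08, KLF10 at 1.76 ± 0.15 and TXNIP at 1.73 ± 0.14. ARRDC3 was dim in T, with a log2 signal of 5.88 in EV cells. In sponge T it was well above background in 1 of 2 channels, and its ratio there was 4.07 ± 0.68. TXNIP, the glucose-responsive arrestin-like protein, changed by -0.23 ± 0.004 in T and -0.43 ± 0.07 in IP.

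**Figure D5:**
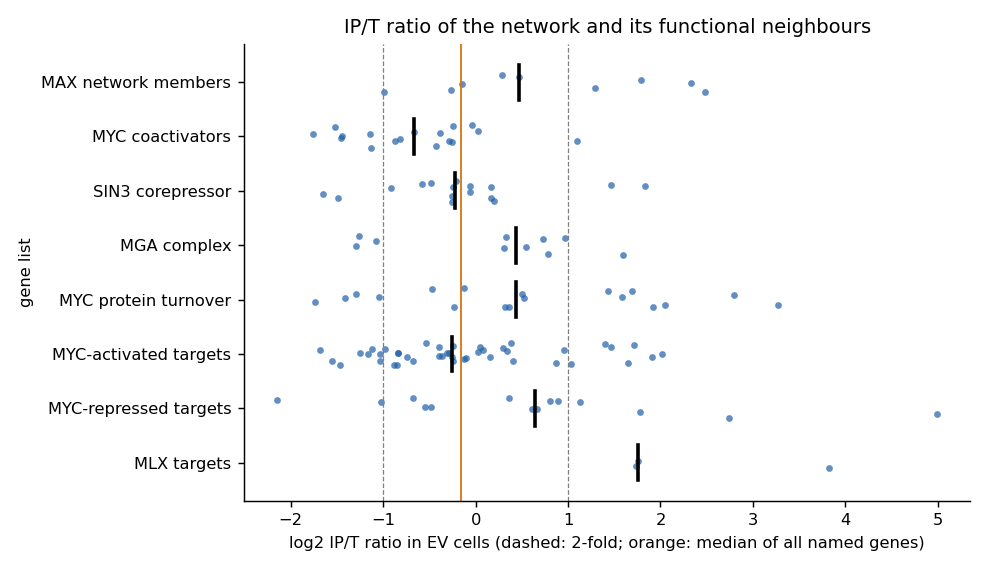
Log2 IP/T ratio in EV cells of each gene of the network and of the related lists, 1 point a gene at its brightest kept probe. Black bars are list medians, the orange line the median of all named genes (-0.16) and dashed lines mark 2-fold. The cofactors of MYC, labelled MYC coactivators, have a median of -0.67 and lie mostly left of the orange line. The MYC-repressed genes have a median of 0.64.

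Transcripts with the profile most like that of MYC over the 4 RNA samples were sought among 14150 named probes that were well above background in all 8 channels, each profile being centred on its mean. For MYC A_23_P215956 these were TMCC1, ARID5B, FAM133B, MICU3 and SLC61A1, with root mean square differences of 0.005 to 0.028 on the log2 scale. For MAX A_23_P205549 they were ARID5B, TEAD1, ST8SIA1, SMAD1 and SLC20A1, at 0.022 to 0.033. ARID5B appeared for both through different probes. With 4 points per profile this is a description of similar values.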

How the data were processed

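The 4 arrays (8 labelled samples of 4 RNA samples, each array deposited under both of its samples) hold spot intensity values that the authors extracted with Agilent Feature Extraction, version 10.7.3.1 per the file headers and 10.5.1.1 per the labels. The authors also deposited a table of 22282 probes in normalised log2 values, each column of which ranked the probes exactly as that channel's processed intensity did. Each sample's own dye channel was used. Control and outlier spots were dropped, spots averaged, log2 values quantile normalised over 8 channels, and probes filtered as stated above. IP/T is a paired difference on 1 array, averaged over both orientations. Of 25825 detected probes, the dye filter removed 3356. A change counted as 2-fold when both dyes agreed in sign and their mean reached 2-fold.

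Probe accessions were named through RefSeq (GRCh38.p14), which named 15625 kept probes of 11201 genes. The array annotation uses an older build, so no gene coordinates are given. All probes of the members are named. Of each related list, genes were named at the highest and lowest IP/T and at the largest changes, and 1 gene is not reported here. The members and lists were chosen with earlier results of these data known. Alternatives were another scaling (75th percentile), normexp correction (offset 50) with loess and Aquantile or with quantile normalisation, other detection and dye filters, the authors' values, and single dyes or orientations. Because the files hold median signals, normexp used these with the median background. The steps were tested on simulated data. Python 3.11.15, numpy 2.4.6, pandas 2.3.3, matplotlib 3.10.9, R 4.3.3 and limma 3.58.1 were used. The number of arrays limits the precision, and background and saturation flags were used as deposited.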

Additional observations from a re-analysis of the deposited data

Results flagged for a closer look

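MYCL, a relative of MYC that also pairs with MAX, was the only gene, of the network members and the genes of the related lists chosen by the naming rule, whose log2 IP/T ratio was above 0 with both dye orientations in EV cells and below 0 with both in sponge cells, at 0.06 ± 0.01 and -0.13 ± 0.07. The difference of -0.19 (sponge minus EV) came with a change of -0.19 ± 0.02 in IP and 0.001 ± 0.08 in T. With 1 RNA sample per group the difference was not tested, and no kept probe of the 9 network genes showed such a reversal. The share of all kept probes with such a reversal is not given, and the lower quartile of their difference in IP/T was -0.13. Both MYCL ratios were close to 0, and the median of all kept probes in EV cells moved from -0.16 to 0.0004 with normexp, loess and Aquantile.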

How the results depend on the processing

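Background correction mattered most. With normexp, loess and Aquantile the median log2 IP/T of all kept probes moved from -0.16 to 0.0004 in EV cells, and the member median was 0.0472 there, against 0.0608 with normexp and quantile normalisation, 0.29 without the dye filter and 0.0692 with a dye filter of 1.5-fold. In sponge cells the member median was 0.0150 with normexp and quantile normalisation, where 3 member probes were enriched 2-fold. The member median of the change in T was 0.0183 with normexp, loess and Aquantile. In sponge cells, the members with a T/IP ratio of at least 2 numbered 0 with 75th percentile scaling and with both normexp settings, and 2 with Cy3 labels only. In EV cells they numbered 1 with Cy3 labels only and with either orientation alone. The other 118 recomputed counts and medians moved by less than their technical SD or, for counts, by less than 1.5 times. Signs were not all kept. The median change in T turned from -0.04 to the value above, MXD4 A_23_P259490 from an IP/T of -0.15 in EV cells to 0.01 at the highest, and MXD1 A_23_P408094 from a change in IP of 0.07 to -0.12 at the lowest. Of the member probes, MYC A_24_P38363 dropped to an IP/T of 0.02 in EV and 0.05 in sponge cells with normexp, whereas MYC A_23_P215956 stayed between 2.30 and 2.67 in EV cells and MNT between 2.29 and 2.37. MXD1 A_23_P408094 reached 1.14 at the lowest in EV cells and 0.87, below 2-fold, in sponge cells. Its change in T ranged from 0.23 to 0.64. The change in IP kept its sign in 8 of 8 alternatives for MYC A_23_P215956, the 3 MAX probes, MXI1, MXD3, both kept MXD4 probes and MNT, with MXD4 A_23_P423695 at -0.19 at the weakest. The dim MYC A_24_P38363, opposite in direction, also kept its sign in 8 of 8, from 0.02 to 0.29. MXD1 A_24_P379750, MGA A_23_P37654 and MLX A_23_P164148 did so too. No paired analysis was possible because each group holds 1 RNA sample, so that IP/T, although taken within arrays, has no second pair per population.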
